A study of Mus musculus with 2 samples.

Results

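The open regions at Fli1 and Ets1, a pair of neighbouring mouse genes for transcription factors of the ETS family, numbered 39 of the 80938 regions listed in megakaryocyte progenitors. A region is a set of overlapping intervals in the authors' conservative list, which keeps peaks found reproducibly in both libraries at a threshold on the irreproducible discovery rate (IDR). The members were all such regions in either gene body or within 50 kb of either gene's 5′ end. The members were thus chosen by the peak calls of both libraries, so their number, signals and p values are given as descriptions with no test. Together the windows formed 1 stretch of chromosome 9, from 32422204 to 32757820 of the mm10 build, 335.6 kb long.

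Open chromatin was mapped by ATAC-seq: adapters are inserted by a transposase where DNA is accessible. The primary cells, labelled as megakaryocyte progenitors, were taken from male C57BL/6J mice, adults of 5 to 6 weeks, and no treatment or altered gene is named. The 1 group held 2 libraries, each made from 50000 cells. The labels number them as biological replicates 1 and 2 but give both the same donor code and do not say whether animals were pooled, so the spread between them may be technical. Depth per library is unknown, since only peak lists were used, and the libraries' own IDR-thresholded lists held 61735 and 60098 merged regions.

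ETS factors share a DNA-binding domain that recognises a core of GGAA with preferred flanking bases. FLI1 is required for megakaryocyte maturation and activates platelet glycoprotein genes together with GATA1 and RUNX1. ETS1 is best known in lymphocytes and in endothelium. The paralogous genes Erg and Ets2 form a second pair of neighbours, and both pairs are thought to descend from 1 ancestral pair. Enhancers of such genes commonly lie in introns and in the intergenic DNA around them, where a distal open region marks a candidate element but not its activity or its target gene.

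Fli1 (ENSMUSG00000016087.13, minus strand) occupied 32422204 to 32542861, and Ets1 (ENSMUSG00000032035.15, plus strand) 32636221 to 32757820. The genes are transcribed away from each other, with 93.4 kb between their 5′ ends. Fli1 had 2 annotated transcripts, both coding. The one with 9 exons starts at 32541595, 1.27 kb inside the gene's 5′ end, and this is called the inner start. Ets1 had 6, of which the 2 that begin at or just inside the gene's 5′ end are retained-intron transcripts. The first protein-coding start, called the coding start, lay at 32696022, 59.8 kb further downstream. The regions are numbered 1 to 39 in chromosome order, so they run from the 3′ part of Fli1 through the intergenic DNA to the 3′ part of Ets1.

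Sequences of 8 distal regions are shown because the results turn on them: the strongest intergenic region (24) and the strongest in Fli1 (1), the regions with 3 kinds of motif (12, 26 and 29), those nearest the inner Fli1 start on either side (17 and 18), and the region nearest a known Fli1 enhancer position (15). Each runs from 75 bp before the strongest summit to 75 bp after it, from GRCm38.p6, the assembly of mm10, on the plus strand, 5′ to 3′. Capitals mark letters of an ETS, GATA, RUNX, NFE2/AP-1, E-box or MEIS motif on either strand, so that CTTCCTG is the complement of the ETS letters CAGGAAG, and TTATCA is that of the GATA letters TGATAA.
region 24, intergenic, chr9:32591853-32592003: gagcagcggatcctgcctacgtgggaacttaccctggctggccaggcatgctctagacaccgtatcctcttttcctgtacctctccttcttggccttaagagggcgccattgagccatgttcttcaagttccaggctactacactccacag
region 1, Fli1 intron, chr9:32445893-32446043: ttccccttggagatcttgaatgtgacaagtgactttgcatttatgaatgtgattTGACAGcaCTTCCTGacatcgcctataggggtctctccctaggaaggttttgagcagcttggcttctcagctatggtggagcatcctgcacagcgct
region 26, intergenic, chr9:32607364-32607514: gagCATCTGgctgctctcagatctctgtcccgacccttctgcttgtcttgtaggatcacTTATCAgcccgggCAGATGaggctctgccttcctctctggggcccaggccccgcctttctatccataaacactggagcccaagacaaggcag
region 18, upstream of Fli1, chr9:32556486-32556636: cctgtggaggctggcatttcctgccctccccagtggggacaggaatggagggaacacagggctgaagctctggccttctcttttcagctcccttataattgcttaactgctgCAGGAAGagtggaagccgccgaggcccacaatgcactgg
region 17, downstream of the inner Fli1 start, chr9:32540165-32540315: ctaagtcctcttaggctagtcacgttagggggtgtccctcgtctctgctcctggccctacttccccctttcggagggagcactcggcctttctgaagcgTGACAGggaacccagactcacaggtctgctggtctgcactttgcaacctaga
region 15, Fli1 intron, chr9:32531063-32531213: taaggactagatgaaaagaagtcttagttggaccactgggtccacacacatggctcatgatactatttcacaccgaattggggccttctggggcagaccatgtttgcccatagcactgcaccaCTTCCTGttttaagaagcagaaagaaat
region 12, Fli1 intron, chr9:32519701-32519851: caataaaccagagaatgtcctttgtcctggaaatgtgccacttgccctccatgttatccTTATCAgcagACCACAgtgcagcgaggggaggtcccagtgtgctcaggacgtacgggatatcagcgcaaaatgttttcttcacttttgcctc
region 29, Ets1 intron, chr9:32652349-32652499: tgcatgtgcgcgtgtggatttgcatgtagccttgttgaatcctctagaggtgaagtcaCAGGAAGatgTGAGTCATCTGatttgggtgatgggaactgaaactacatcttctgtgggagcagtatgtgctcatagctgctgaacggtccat
In region 29 the NFE2/AP-1 letters TGAGTCA and the E-box letters CATCTG overlap at their shared CA. In regions 12 and 26, 1 of the 3 kinds is the spaced E-box with GATA motif, defined below. It overlaps the GATA letters already marked and is not capitalised on its own.

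Of the 39 regions, 17 lay in the Fli1 body, 11 in the Ets1 body and 11 between the genes. By strongest summit, 26 were intronic, 10 intergenic, 2 at promoters (within 1 kb of a start site) and 1 exonic. In Ets1, regions 29 to 35 lay 43.6 to 9.95 kb upstream of the coding start. They counted as intronic only through retained-intron transcripts. The exonic one, region 3, had its summit at 32476772, at the very edge of exon 2 (32476562 to 32476773) of that 9-exon Fli1 transcript. The region itself, 32476456 to 32477131, reached beyond the exon on both sides. The 39 regions held 54 summits, and 12 regions held more than 1. Their density was 11.6 per 100 kb, and 109 of 8112 tiles of the same length across the genome (1.34%) held as many or more, with a median of 6. Widths ran from 218 to 983 bp with a median of 478 bp, against 454 bp over all regions. Median GC content at the summit was 51.7%, the same as over all regions.

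The regions stopped short of both 3′ ends. The outermost on the Fli1 side lay 23.8 kb inside the span (signal 13.2), and the next one beyond lay 16.7 kb outside (9.35). On the Ets1 side the last region lay 37.6 kb inside (6.29) and the next 143.7 kb outside (9.40). The longest stretch with no region of the conservative list, 36.9 kb, covered the 3′ part of Ets1. Others of 28.9 and 18.4 kb lay within the Fli1 body on either side of regions 2 and 3, and 1 of 19.7 kb lay just upstream of the Ets1 5′ end. Each of these stretches held peaks of the replicated list, which was made from both libraries with a looser rule. The strongest, at 32730645 to 32731144 in the 3′ part of Ets1, had a signal of 5.93. The protein-coding neighbours on the Fli1 side were the potassium channel genes Kcnj1 and Kcnj5, with 4 and 3 distal regions and no promoter summit, and then the GTPase-activating protein gene Arhgap32, with 14 distal regions and a promoter signal of 11.9. On the Ets1 side the nearest protein-coding gene was Kirrel3, 1728 kb away.

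**Figure D1:**
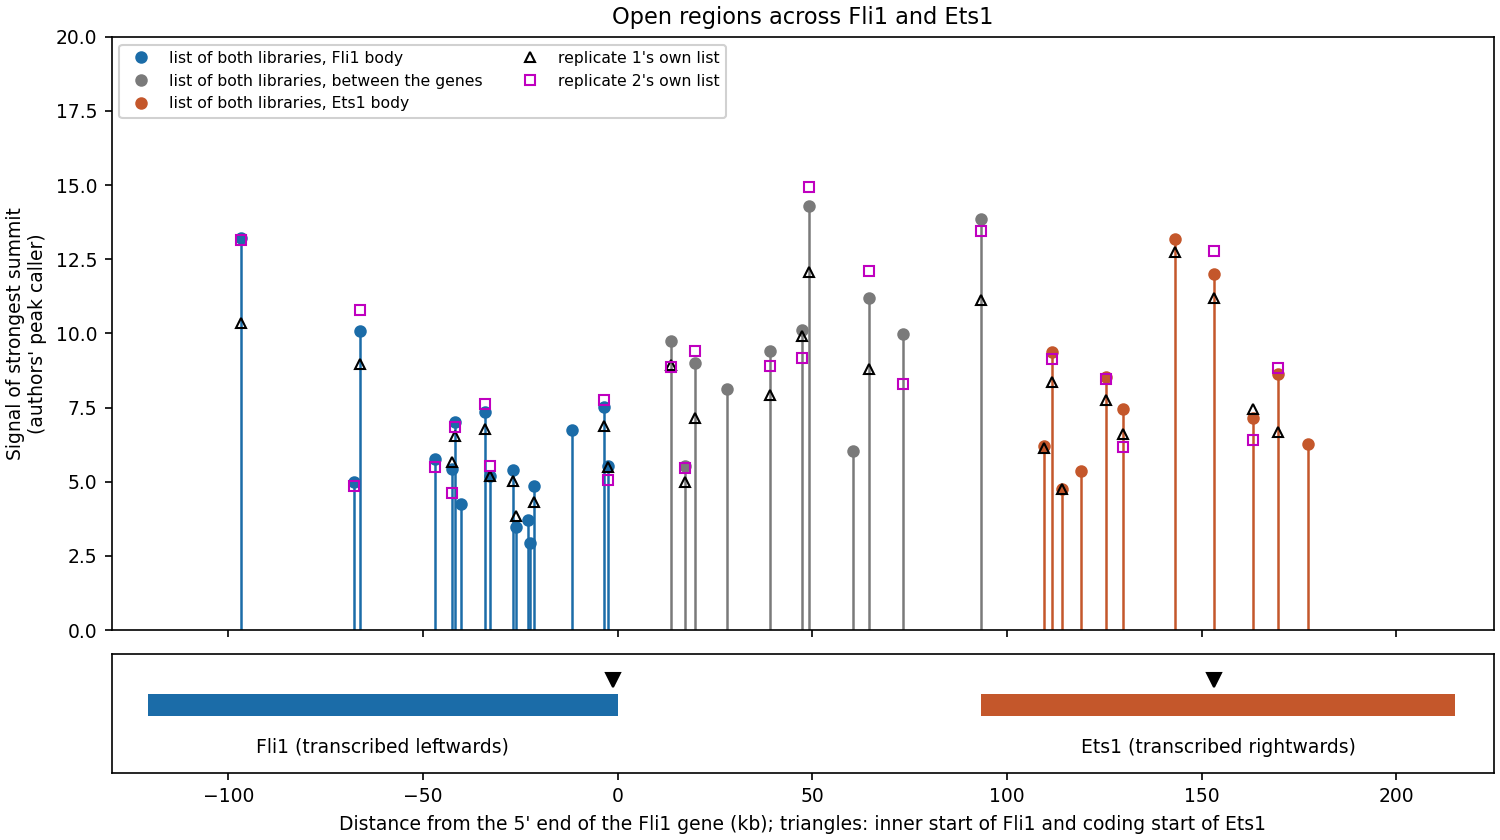
Signal of each of the 39 regions (vertical axis, the peak caller's signal value) against distance of its summit from the Fli1 5′ end in kb (horizontal axis), with gene bodies below. Filled points are the list of both libraries, open triangles and squares the own lists of replicates 1 and 2; the Fli1 body holds the closely spaced low signals, and no filled point stands at the inner Fli1 start.

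The signal of a region is the value that the authors' peak caller gave its strongest summit, with no scaling between libraries stated. Over the 39 regions it ran from 2.93 to 14.3 with a median of 7.13, and 13 were above the median of all regions, 8.90. The median was 5.42 in the Fli1 body (2.93 to 13.2), 7.45 in the Ets1 body (4.74 to 13.2) and 9.73 between the genes (5.52 to 14.3). The ranges overlapped widely. Most regions of the Fli1 body were therefore among the weaker of the list, while those between the genes were spread around its middle.

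Region 24, the strongest, lay between the genes at 32591735 to 32592076, 49.1 kb upstream of the Fli1 5′ end and 44.3 kb upstream of that of Ets1. Its signal was 14.3 in the list of both libraries, 12.1 in replicate 1 and 14.9 in replicate 2 (13.5 ± 2.02, SD, n = 2). Its −log10 p of 135.2 was second to that at the Ets1 coding start. None of the 8 motifs matched at its summit.

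Region 1 lay at 32445797 to 32446107 in intron 5 of Fli1, 96.9 kb downstream of the Fli1 5′ end and 28.9 kb from the next region. Its signal was 13.2, with 10.4 in replicate 1 and 13.2 in replicate 2 (11.8 ± 1.99, SD, n = 2). In its sequence the MEIS and ETS letters stand 2 bases apart, 21 and 13 bp before the summit.

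Region 26, between the genes at 32607191 to 32607668, had a signal of 11.2, with 8.80 in replicate 1 and 12.1 in replicate 2 (10.4 ± 2.33, SD, n = 2). It had the largest ratio between replicates of the 22 regions listed in both. A GATA match and 2 E-box matches lay in its window.

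Region 35 lay at 32685893 to 32686273 in an intron of the retained-intron Ets1 transcript, 9.95 kb upstream of the coding start. Its signal was 13.2 and in replicate 1 it was 12.7. It was missing from replicate 2's own IDR-thresholded list, although replicate 2's pseudoreplicated list, which compares random splits of 1 library's reads, gave it 11.01. It was the strongest region that only 1 replicate's own list held.

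The remaining places among the strongest 6 were taken by both promoter regions of Ets1. Region 28, at 32636002 to 32636812, had its summit 73 bp upstream of the Ets1 5′ end, where only retained-intron transcripts begin. Its signal was 13.8, with 11.1 in replicate 1 and 13.5 in replicate 2 (12.3 ± 1.65, SD, n = 2). Region 36, at 32695560 to 32696494, had its summit 11 bp from the Ets1 coding start. Its signal was 12.01, with 11.2 in replicate 1 and 12.8 in replicate 2 (11.99 ± 1.10, SD, n = 2). In the list of both libraries region 28 was the stronger by signal, but the replicate means differed by less than either SD, and replicate 1 gave the promoters nearly equal signals. Their base composition differed: within 250 bp of the start, GC content was 73.1% at the coding start and 47.5% at the gene's 5′ end. The SDs of regions 24, 28 and 1 include a shift toward replicate 2 that they share (log2 ratios of 0.31, 0.28 and 0.35). Within each replicate their order was the same, region 24 above region 28 above region 1.

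At Fli1 no summit of the conservative list lay within 1 kb of either annotated start, and none did in either replicate's own IDR-thresholded list. Of all protein-coding genes 62.1% (13618 of 21938) had a promoter summit in the conservative list, with a median signal of 11.3. On either side of the inner Fli1 start, the nearest summits of that list were those of regions 17 and 18. The former lay 1.36 kb downstream with a signal of 5.53, the latter 14.97 kb upstream with 9.73. Region 17 had 5.52 in replicate 1 and 5.07 in replicate 2 (5.29 ± 0.312, SD, n = 2), and region 18 had 8.95 and 8.85 (8.90 ± 0.0650, SD, n = 2). Region 16, 2.19 kb downstream of the start, had 6.87 and 7.75 (7.31 ± 0.621, SD, n = 2). These 3 regions were thus listed in both replicates at similar levels. A weak peak on the start itself, at 32541209 to 32541784, appeared in 5 of the 8 lists, with a signal of 3.34 in those made from both libraries. In the pseudoreplicated lists it had 3.41 in replicate 1 and 3.00 in replicate 2, and its summit lay 38 to 44 bp from the inner start. In the replicated list, made from both libraries with a looser rule, its −log10 p was 23.1.

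Within 250 bp of the inner Fli1 start and of the gene's 5′ end, GC content was 54.1% and 53.7%. Among the 3230 protein-coding genes whose start fell between 50 and 55% GC, 54.8% had a promoter summit, so its lack was common at that composition. Of the 97 genes with 15 or more distal regions, 17 (17.5%) lacked a promoter summit.

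A distal region here is one whose strongest summit lay within 50 kb of a gene's 5′ end and over 1 kb from every annotated transcript start of protein-coding genes, noncoding transcripts included. Fli1 had 21 in the conservative list, 15 in replicate 1's own list and 13 in replicate 2's (14 ± 1.4, SD, n = 2). The share of protein-coding genes with at least as many in the conservative list was 0.00912%, with 1 other gene above it at 22. In the own lists of replicates 1 and 2, 6 and 20 genes had more than Fli1, and the shares with at least as many were 0.0638% and 0.173%. Ets1 had 12, with 9 and 7 in the replicates' own lists (8.0 ± 1.4, SD, n = 2), and 2.33% of genes had at least as many in the conservative list, against 3.48% and 9.36% in the own lists. The median over all protein-coding genes was 4. Since the genes' windows overlap, some intergenic regions counted for both. Measured from the inner and the coding start in place of the gene 5′ ends, a choice made after seeing the data, the counts were 20 for Fli1 and 10 for Ets1.

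Within the Fli1 body the regions crowded into the first intron. Regions 5 to 14, 10 in all, lay within 21.6 kb at 32500166 to 32521763, all in intron 1 and 20.1 to 41.3 kb downstream of the inner start. This run was picked as the densest window of 25 kb begun at any of the 39 regions. Of windows of 25 kb begun at each of the 80938 regions, 57 (0.0704%) held as many, with a median of 3. These windows overlap, and that share makes no allowance for the picking of the densest. Signals of the 10 regions ran from 2.93 to 7.36 with a median of 5.04, against a median of 8.52 over the other 29 regions at the genes. Both replicates' own lists held 4 of the 10, against 63.9% of all regions, and 3 were in neither, against 18.9%. The strongest, region 8 at 32508297 to 32509279, held 3 summits and had 6.78 in replicate 1 and 7.63 in replicate 2 (7.20 ± 0.602, SD, n = 2).

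Low signal in crowded stretches was also seen over the whole list. Regions with no other within 12.5 kb on either side had a median signal of 10.8 (16937 regions), and those with 7 or more others had 5.19 (604 regions). Regions with 5 or 6 others had 6.12 over all and 5.37 over the 8 at these genes. At the genes the 4 regions with 7 or more others had 4.46 and the 2 with none had 13.5. The part of crowding in the low signals of the Fli1 intron was not tested.

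The −log10 p of the same peaks gave another order. Of the 39 regions, 28 stood at a higher percentile by −log10 p than by signal, against 44.6% of all regions. In the Fli1 body this held for 15 of 17. The median percentile over the 39 was 54.8 by −log10 p and 30.5 by signal, and 20 regions were above the overall median by −log10 p. In the Fli1 body the medians were 39.9 and 11.8. The highest −log10 p values were 163.2 at region 36, 135.2 at region 24, 114.6 at the Fli1 exon 2 region (3) and 112.5 at region 8. Region 16, near the Fli1 start, had 108.5 with a signal of only 7.54. Regions of low signal in Fli1 thus often ranked higher by the authors' p. A low rank by signal leaves more room for a higher one, and its part here was not tested. Over all regions, median −log10 p was 55.1 with no other region within 12.5 kb and 50.2 with 7 or more. Median signal went from 10.8 to 5.19 between the same classes. At these genes the median −log10 p was 81.6 for the 2 regions with no other and 45.2 for the 4 with 7 or more. Whether this order is particular to Fli1 was not tested.

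**Figure D2:**
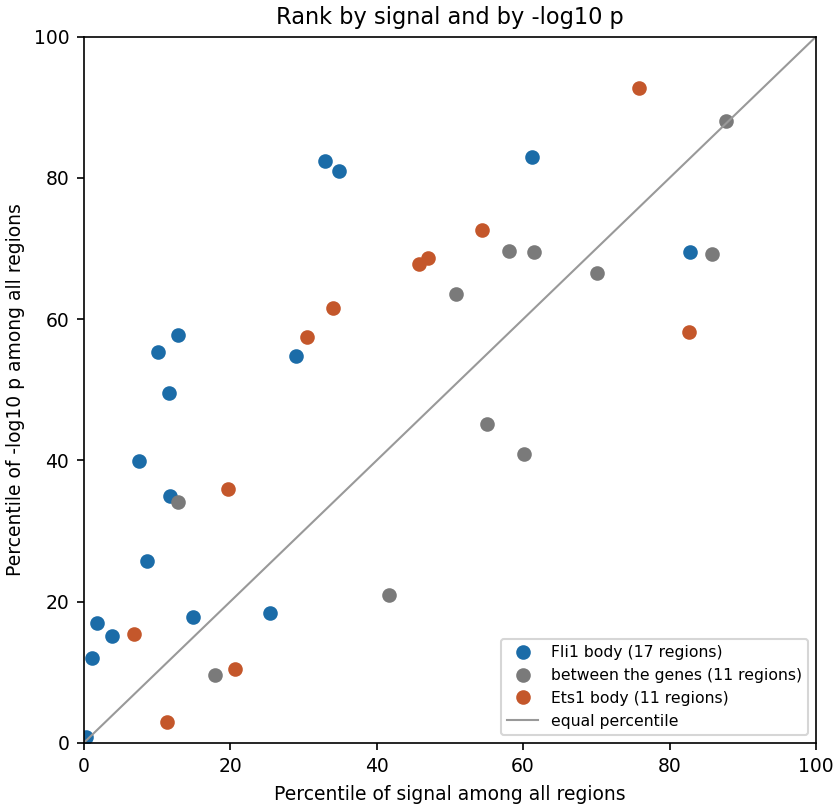
Percentile of each region among all regions by −log10 p (vertical axis) against its percentile by signal (horizontal axis), both from the list of both libraries; each point is 1 region. Of the 17 points for the Fli1 body, 15 lie above the diagonal.

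Each replicate's own IDR-thresholded list was then compared with the 39 regions. A region was found if an overlap covered 50% or more of it or of its counterpart. These lists come from the same libraries as the conservative list and are not independent of it. Replicate 1's list held 28 of the 39, against 73.4% of all conservative regions. Replicate 2's list held 25, against 71.6%. Both held 22, against 63.9%, and 8 were in neither, against 18.9%. These shares were near those over all regions. Both lists held 8 of the 17 regions in the Fli1 body, 8 of the 11 between the genes and 6 of the 11 in Ets1. The 3 regions that only replicate 2 held were regions 2 and 4 in Fli1 and 27 upstream of Ets1. The 6 that only replicate 1 held were regions 10, 11 and 14 in Fli1 and 29, 31 and 35 in Ets1.

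The 8 regions in neither list were 7, 12, 13 and 15 in Fli1, 21 and 25 between the genes, and 32 and 39 in Ets1. Their median signal was 5.70, against 6.02 over all 15307 regions in neither list. The strongest was region 21, at 32570311 to 32570972, with 8.12 and an ETS match at its summit. In the pseudoreplicated lists it had 7.13 in replicate 1 and 6.73 in replicate 2. The replicates' looser pseudoreplicated lists held 38 and 39 of the 39, against 98.5% and 98.4% of all regions. The replicated list held all 39, against 99.9%, and the IDR-thresholded list of both libraries held 32, against 91.0%. The replicated list also held 17 further regions at the genes, with signals from 2.64 to 5.93.

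Region 15 was the 1 region that replicate 1's pseudoreplicated list lacked. It lay at 32531031 to 32531248 in intron 1 of Fli1, 11.7 kb downstream of the Fli1 5′ end. It was singled out by its position, since an enhancer of Fli1 active in blood progenitors is known about 12 kb downstream of the Fli1 promoter. Its signal was 6.73 in the list of both libraries and 6.46 in replicate 2's pseudoreplicated list, and its summit was 10.5 kb downstream of the inner start. Counted from that start, the nearest peak to 12 kb was 1 of the 17 regions held only by the replicated list, at 32529713 to 32529927, 11.8 kb downstream with a signal of 4.15. Neither peak was in a replicate's own IDR-thresholded list, so accessibility at that position was not seen at that threshold in a single library.

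For the 22 regions in both own lists, the log2 ratio of replicate 2 to replicate 1 had a median of 0.15 (SD 0.20 over regions, from −0.29 to 0.46). It was higher in replicate 2 at 16 and lower at 6, against 69.0% higher over all 51738 regions in both lists, where the median was 0.08 and the SD 0.18. The median was 0.13 in the Fli1 body (8 regions), 0.22 between the genes (8 regions) and 0.13 in the Ets1 body (6 regions). Since no scaling between libraries is stated, these ratios describe the lists and not a change. The regions furthest toward replicate 2 were 26 (0.46), 38 in Ets1 intron 1 (0.40) and 20 upstream of Fli1 (0.39), and those furthest toward replicate 1 were 5 (−0.29) and 37 (−0.22). Spearman's rank correlation between replicates was 0.919 across the 22 regions, which share their libraries, and 0.919 across all.

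**Figure D3:**
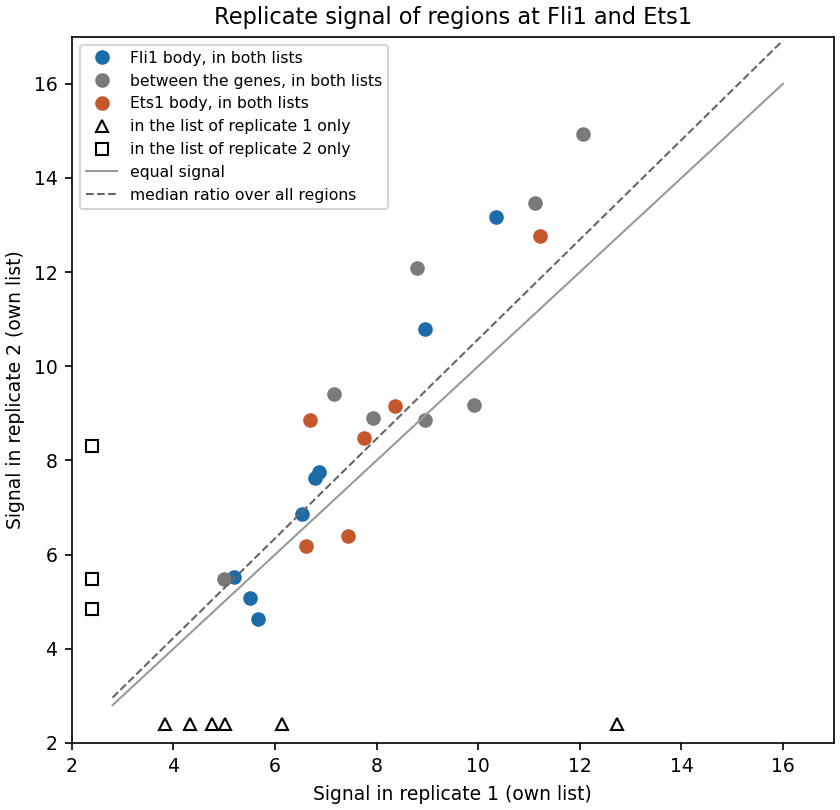
Signal in replicate 2's own list (vertical axis) against that in replicate 1's (horizontal axis) for regions at the genes, with equality as a solid line and the median ratio over all regions dashed. The 22 regions in both lists are filled, and those in 1 list stand at the axis of the other; region 35 is the open triangle at 12.7.

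Motif letters were searched on both strands within 75 bp of each strongest summit, and a match describes letters, not binding. ETS letters (CCGGAAG or CAGGAAG) were in 7 of the 39 regions, against 16.3% of all regions. These were regions 1, 11 and 15 in Fli1, 18 and 21 between the genes, and 29 and 31 in Ets1. GATA letters (AGATAA or TGATAA) were in 7, against 18.2%, of which 4 were in Fli1, 3 between the genes and 0 in the Ets1 body. RUNX letters (TGTGGT or TGCGGT) were in 10, against 22.9%, and E-box letters (CAGCTG or CAGATG) in 10, against 23.4%. NFE2/AP-1 letters (TGANTCA) were in 3, against 7.04%, and MEIS letters (TGACAG) in 6, against 13.0%. The spaced E-box with GATA letters (CTG, then 8 or 9 bases of any kind, then GATAA) include part of the GATA letters and were in 2 regions, 12 and 26, against 3.42%. The CTCF motif was in 0, against 6.1%.

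No region held both ETS and GATA letters, against 2.29% of all, and none held ETS, GATA and RUNX letters, against 0.573%. Region 31 held ETS with RUNX letters (3.84% of all) and region 12 GATA with RUNX letters (4.36% of all). None of the 8 motifs was in 9 regions, against 31.3%. With 39 regions these shares were close to those over the list. In region 12, shown above, the GATA and RUNX letters stood 4 bases apart beside its summit. That region had a signal of 3.72 and was in neither replicate's own list. In region 18 the ETS letters lay 37 bp after the summit, and in region 15 they lay 48 bp after it.

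Among the 26 genes of the ETS family, 20 (76.9%) had a promoter summit in the conservative list, against 62.1% of all protein-coding genes. The median signal of the 20 was 10.8. The 6 without were Fli1, Fev, Etv2, Spdef, Spib and Spic. Fli1 had the most distal regions. It was followed by Elf2 with 14, Etv3 with 13, Ets1 and Elk3 with 12, Etv6, a repressor needed for blood stem cells, with 11, and Spi1, the myeloid and lymphoid factor PU.1, with 10. The median over the 24 genes other than Fli1 and Ets1 was 5 (0 to 14). In each replicate's own list Fli1 again had the most, 15 and 13. In replicates 1 and 2 Ets1 had 9 and 7, Elf2 9 and 10, Etv3 10 and 9, and Elk3 7 and 8. Etv3 was thus above Ets1 in both replicates. Elf2 was level with Ets1 in replicate 1 and above it in replicate 2, and Elk3 was below it and then above. The Ets1 promoter signal of 13.8 was exceeded by those of Ets2 (15.3), Elk1 (16.4), Elf3 (16.8) and Etv4 (16.8).

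**Figure D4:**
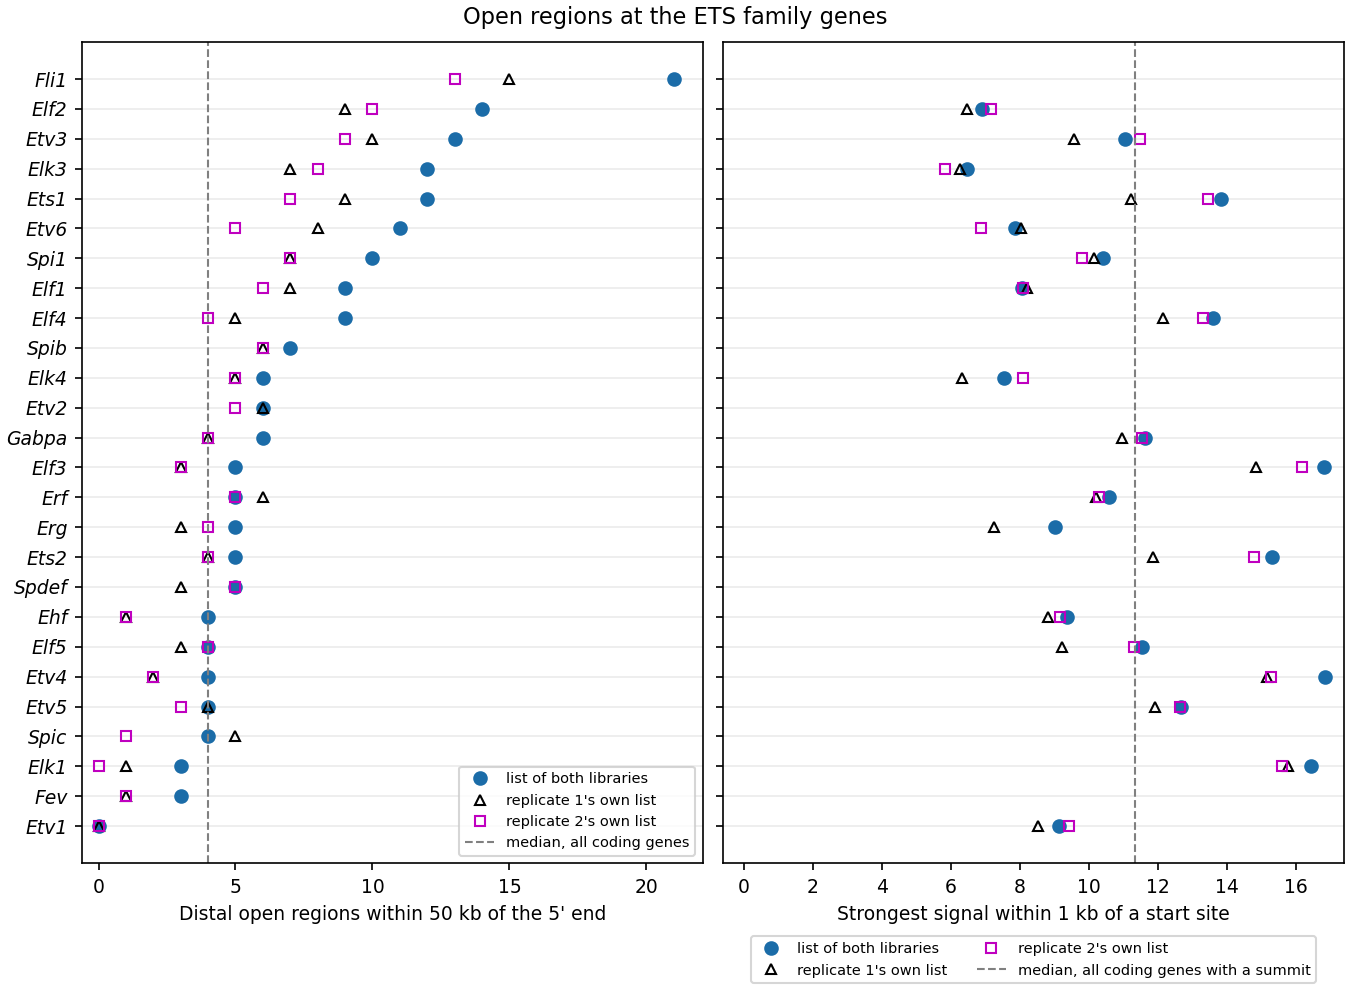
Distal regions per gene (left) and strongest promoter signal (right) for the 26 ETS family genes, in the list of both libraries (filled) and each replicate's own list (open); the dashed lines are medians over protein-coding genes, 4 regions and a signal of 11.3. Fli1 has 21 distal regions and no promoter point.

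The paralogous pair was arranged alike, head to head with 115.5 kb between 5′ ends, on chromosome 16 from 95359169 to 95752075. Its gene bodies and 50 kb windows covered 377.4 kb and held 30 regions, or 7.95 per 100 kb, with a median signal of 8.02 (4.16 to 15.3). Erg and Ets2 had 5 distal regions each, against 21 and 12 at Fli1 and Ets1. Erg, unlike Fli1, had a promoter summit, with 9.004 in the conservative list and 7.25 in replicate 1, and with none in replicate 2's own list. Of the 30 regions, 18 were in both replicates' own lists and 5 in neither, against 63.9% and 18.9% of all regions. Their median percentile was 40.3 by signal and 42.5 by −log10 p. ETS letters were in 6 of the 30 and GATA letters in 6, against 16.3% and 18.2% of all regions. Each pair is 1 stretch of DNA, so these differences were not tested.

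Of 10 genes for factors that act with FLI1 in blood cells, all had a promoter summit, against 62.1% of all protein-coding genes. Their median promoter signal was 5.95, and their median number of distal regions was 9. Zfpm1, which encodes the GATA1 cofactor FOG1, had 17, Tal1 had 12, and Lmo2 and Lyl1 had 11 each. Gata1 and Runx1 had 6 and 8. All 10 had a promoter signal under 11.3, the median over all genes with one, and more distal regions than the median of 4. Of 18 platelet genes known to be regulated by FLI1, 13 (72.2%) had a promoter summit, against 62.1% of all protein-coding genes. Their median number of distal regions was 6. Vwf, for von Willebrand factor, had 14 distal regions, with 5 and 6 in the own lists of replicates 1 and 2. Gp9, for a subunit of its receptor, had 10, with 8 in each replicate, so the order of these genes was the reverse in each replicate's own list. Gp1bb and Tubb1 were among those with no promoter summit.

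Likeness was measured as the distance over 6 percentile values, the promoter signal and the distal count in each of the 3 lists, across all protein-coding genes. The genes most alike to Fli1 were Ccr1l1 (distance 0.200 percentile points, 17 distal regions), Timm8a2 (0.208, 19) and Gm17387 (0.383, 15), all with no promoter summit. Those most alike to Ets1 were Lrrfip2 (4.34, 13 distal regions), Azin2 (5.82, 12) and Nav2 (6.08, 11), with promoter signals of 13.1 to 13.5. Promoter signal and distal count make up the distance, so likeness in either follows from the measure and is not a finding about these genes. These distances rest on 2 libraries.

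Markers were read by the same measure, beside the 62.1% of all protein-coding genes that had a promoter summit. Of 12 megakaryocyte markers, 8 had a promoter summit, among them Itga2b (12.6), Gp1ba (13.9), Vwf (11.7) and Pf4 (5.96), while Gp1bb was among those with none. Of 9 T and NK markers 2 had one, Cd3d (16.003) and Lck (11.8), while Cd3e, Cd3g, Cd4 and Cd8a had none. The counts were 3 of 6 for B cells, 4 of 7 for endothelium, 5 of 6 for erythroid cells and 5 of 6 for monocytes and granulocytes. Fli1 and Ets1 are also active in some of these cells, and the part of other cells in their regions was not tested. In a bulk library, fewer cells with an open region and less opening per cell cannot be told apart.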

How the data were processed

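ATAC-seq peak lists of 2 libraries of 1 group were used. Lists are on mm10, per the labels. Each list holds a signal value per peak from the authors' peak caller, and the p column holds −log10 p values as the authors deposited them. A ranked list of matched peak pairs, whose inputs are not named, gives a score per pair, deposited by the authors as the −log10 of the global IDR. It was joined to the regions, and no result rests on it. Not given in the sources used here were the aligner, the peak caller, duplicate handling and whether reads were shifted to the insertion site, all of which could move summits or alter which regions are listed.

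Overlapping intervals were merged with Python 3.11.15 and numpy 2.4.6, and the strongest summit gave each region its signal. Positions are 1-based, and genes are from GENCODE M21. Sequences were read with pysam 0.24.0 from the reference genome. RefSeq promoter sequences of both genes were not used here. Percentiles are over all 80938 regions or all 21938 protein-coding genes. Merging, matching and motif search were tested on simulated data. The labels give 1 group, so no test between groups was made. In full the text names Fli1, Ets1, their promoter regions, the strongest 6 regions, the region nearest 12 kb downstream of Fli1, the strongest region in neither replicate's own list, the Erg and Ets2 pair, the 3 most alike genes and the neighbouring genes. Other regions and genes named were picked after their values were seen. The members and lists were chosen with earlier results of these data known. Alternatives were other peak lists, windows, overlap rules and motif windows, and each replicate alone. Some genes of the lists are not reported here by name.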

Additional observations from a re-analysis of the deposited data

How the results depend on the processing

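Of 48 alternative values, 35 were scored the same, 13 moved and 0 reversed. The same meant counts within 1.5 times, promoter signals within the replicate SD, and the log2 ratio within its SD over regions. A reversal could be scored only for the log2 ratio. Some outcomes were fixed in advance. With no Fli1 summit within 1 kb there is none within 0.5 kb, and 1 list alone cannot hold fewer regions than both share. Leaving out 1 replicate, by using the other's own list, gave 25 to 28 regions at the genes in place of 39, 25 to 28 in place of the 22 found in both lists, 13 to 15 distal regions for Fli1 in place of 21 and 7 to 9 for Ets1 in place of 12. The Ets1 promoter signal was then 11.2 to 13.5. With the replicates' pseudoreplicated lists, 38 regions were found in both. Windows of 20 kb gave 6 distal regions for Fli1 and 2 for Ets1, and windows of 100 kb gave 22 for Ets1. Fli1 had no promoter summit within 0.5 or 1 kb. It had 5.53 within 2 kb, 3.34 in the replicated list and 3.34 in the IDR-thresholded list. When any region touching the 1 kb window counted, an alternative chosen after seeing the data, it had 5.53. In each of these the changed list, window or rule is itself the difference. With GGAAG on either strand as the ETS letters, 23 of the 39 regions matched, against 56.8% of all.

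No paired analysis was possible because there is only 1 group. Depth is unknown, so a region missing from a replicate's list is not shown to be closed there. With 2 replicates, an SD is itself imprecise.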
